A study of Mus musculus with 4 samples.

Results

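A set of 8 genes that answer GDNF and ERK signalling were followed through single-cell RNA sequencing of sorted mouse testis cells. They are Etv4, Etv5, Bcl6b, Lhx1, Egr2, Egr4, Spry4 and Dusp6, and they are 8 of the 26041 gene symbols in the count tables. They were chosen by name from a list of known response genes, with earlier results of these data known. Each cell carries an Eomes-iCreERt2-tdTomato knock-in allele of a B6N.Cg line, which places tdTOMATO under control of the gene for the T-box factor EOMES, and was sorted as tdTOMATO+ at 4 wk of age against a gate set on littermates without the allele. One group was Plzf +/+ (3 libraries, on plates 1, 2 and 4, with 317, 303 and 277 cells). The other was Plzf lu/lu (2 libraries, on plates 3 and 4, with 314 and 38 cells), homozygous for luxoid, a loss-of-function allele of the transcriptional repressor gene Plzf (Zbtb16). Plate 4 held both genotypes. The labels name plates but no animals, so p-values between genotypes measure the spread between plates, which may be technical in part. Comparisons of cell classes within libraries take the library as block. Their p-values measure how far those differences vary between libraries. RNA was read from its 3′ end, so levels are compared between samples and not between genes.

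The growth factor GDNF reaches spermatogonia from the somatic cells around them. The most primitive spermatogonia carry its receptor GFRA1, which signals through the receptor tyrosine kinase RET. The signal runs through RAS to the kinase ERK and through SRC family and PI3K pathways, and spermatogonial stem cells depend on it to renew themselves. Etv4 and Etv5 encode ETS factors, Bcl6b a BTB zinc finger repressor and Lhx1 a LIM homeodomain factor, and several of them are needed for stem cell maintenance in culture. Egr2 and Egr4 encode immediate early zinc finger factors. Spry4 and Dusp6 encode inhibitors that ERK induces and that act back on it, SPRY4 above ERK and DUSP6 by removing phosphate from ERK itself.

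Libraries held 2129422, 2372452 and 2005033 UMIs in Plzf +/+ and 2608702 and 254514 in Plzf lu/lu, where a UMI marks 1 captured RNA molecule. The median cell held 5908 UMIs in Plzf +/+ and 6271.5 in Plzf lu/lu. Zbtb16, the mutated gene, was at 76.7, 51.8 and 72.3 CPM (UMIs relative to the total of the library, scaled by TMM) in Plzf +/+ and at 18.3 and 12.1 in Plzf lu/lu (log2 fold change -1.97 ± 0.30 SE, adjusted p = 0.0319 by edgeR's quasi-likelihood test), which goes with the labels. Eomes, the gene behind the sort, gave 44, 29 and 23 UMIs in Plzf +/+ against 5 and 0 in the mutant libraries (log2 -3.02 ± 0.65, adjusted p = 0.0801). Germ cell markers were present throughout: Dazl was found in 84.9% of the Plzf +/+ cells without a Gfra1 UMI and in larger shares of the other classes. Sertoli markers summed to 449 to 549 CPM (sums over lists are not scaled by TMM) in Plzf +/+ and to 1049 and 739 in Plzf lu/lu. Ctsl alone gave 947 of 1168, 833 of 1137 and 660 of 901 of these UMIs in Plzf +/+. In Plzf lu/lu it gave 1215 of 2737 and 79 of 188. Between the genotypes 4 of the 9 Sertoli markers tested (Clu, Amhr2, Cldn11 and Sox9) were called higher in Plzf lu/lu, and none of the 10 on the list was at 0 in any library. All 9 tested were above 0, with a median log2 fold change of 2.06, and 8 had an unadjusted edgeR p under 0.05. In cells with a Gfra1 UMI the Sertoli sum was 437 to 557 in Plzf +/+ and 509 and 537 in Plzf lu/lu. Of these UMIs Ctsl gave 719 of 828, 641 of 815 and 467 of 622 in Plzf +/+. In Plzf lu/lu it gave 447 of 653 and 35 of 67, so the sum mostly follows Ctsl. Between genotypes in these cells the median log2 fold change of the 7 markers tested was 0.55, with 5 above 0. By edgeR none was called, and by DESeq2 1.

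In GRCm38.p6 (RefSeq) Etv4 lies at chr11:101769747-101785310, Bcl6b at chr11:70224127-70229798, Lhx1 at chr11:84517975-84525534, Egr2 at chr10:67534469-67542188, Dusp6 at chr10:99263231-99267489, Egr4 at chr6:85511121-85513589, and Etv5 at chr16:22381313-22439570. RefSeq promoter windows, from 250 bases before to 50 bases after a transcription start, were at hand for 5 of the 8 genes, 10 windows in all. Shown here are windows of Egr2, Lhx1 and Egr4, the 3 genes with a window that holds an element marked here. RefSeq gives 5 starts for Egr2, and the window shown was chosen because it holds both elements marked here. They are printed 5′ to 3′ on the strand of the gene, with capitals for the core of a cAMP response element (TGACGT, or ACGTCA on the other strand) and for a CArG box, the binding element of serum response factor.
Egr2 (chr10:67537619-67537918, plus strand): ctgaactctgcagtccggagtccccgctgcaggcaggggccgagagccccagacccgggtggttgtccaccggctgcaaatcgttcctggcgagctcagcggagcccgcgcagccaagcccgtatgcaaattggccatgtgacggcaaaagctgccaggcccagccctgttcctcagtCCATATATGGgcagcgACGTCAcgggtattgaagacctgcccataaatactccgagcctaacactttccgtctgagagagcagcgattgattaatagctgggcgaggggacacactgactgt
Lhx1 (chr11:84525485-84525784, minus strand): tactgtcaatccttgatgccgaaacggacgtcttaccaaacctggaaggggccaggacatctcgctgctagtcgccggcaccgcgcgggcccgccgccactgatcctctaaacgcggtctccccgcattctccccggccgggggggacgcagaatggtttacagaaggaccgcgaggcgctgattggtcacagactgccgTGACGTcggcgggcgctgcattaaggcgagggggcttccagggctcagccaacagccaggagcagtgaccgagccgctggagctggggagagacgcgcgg
Egr4 (chr6:85513540-85513839, minus strand): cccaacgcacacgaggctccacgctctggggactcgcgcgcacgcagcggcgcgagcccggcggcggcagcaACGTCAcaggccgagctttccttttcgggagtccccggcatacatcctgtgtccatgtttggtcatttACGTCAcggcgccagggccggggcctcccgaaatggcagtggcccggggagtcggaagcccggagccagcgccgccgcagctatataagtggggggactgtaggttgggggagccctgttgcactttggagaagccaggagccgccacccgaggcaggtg
The 6-base core occurred once in these Egr2 and Lhx1 windows, starting 56 and 50 bases before the start site, and at 2 places in that of Egr4, 178 and 110 bases before it. Of all 32851 windows, 7.51% held it. The CArG box began 72 bases before this Egr2 start and does not overlap the core, and 1.63% of all windows held one. Of the other 4 Egr2 windows, 2 held both elements, that at chr10:67537316-67537615 held the CArG box alone and that at chr10:67535249-67535548 held neither. The windows of Etv5 and Dusp6 held neither. No window of the 5 genes matched the AP-1 element TGACTCA, the ETS core CCGGAAG or the EGR element GCGTGGGCG on either strand, which 5.20%, 8.86% and 0.612% of all windows held. A match describes letters and is not evidence of binding.

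Most Plzf +/+ cells held RNA of at least 1 of the genes. Of the 897 cells, 746 (83.2%) did, 430 (47.9%) held 3 or more of them, and 3 cells held all 8. The mean was 2.54 genes per cell, with an SD of 0.11 between the 3 library means. Egr2 was found in the largest share of cells, 54.1%, followed by Dusp6 (43.6%), Etv5 (41.4%), Lhx1 (31.5%), Egr4 (27.4%), Etv4 (22.5%), Bcl6b (18.1%) and Spry4 (14.9%). The order follows both abundance and capture. Binomial 95% intervals (exact, Clopper-Pearson), set by counting error alone, separate Egr2 from Dusp6 (50.7 to 57.4% against 40.3 to 46.9%) but not Dusp6 from Etv5 (38.1 to 44.7%).

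Free RNA can place a UMI in a cell that does not express the gene. The 49 cells rich in spermatid markers served as a measure of that, although they may be mixed, since 71.4% of them held Dazl. They lie mostly in the Plzf +/+ libraries (6, 20 and 14, against 7 and 2 in Plzf lu/lu), so they give no background for Plzf lu/lu. Thinned to 2000 UMIs, 45 of these cells remained, with a median of 8676 UMIs before thinning against 6116 for the 834 Plzf +/+ cells that remained. Etv5 was found in 20.0% of the spermatid marker-rich cells and in 20.4% of the Plzf +/+ cells, so its share in single cells was not above this background. Spry4 was at 6.67% and 5.64% and Egr4 at 8.89% and 10.3%, which are as close. With all UMIs, Egr4 was in 12.2% of the spermatid marker-rich cells and in 27.4% of the Plzf +/+ cells. Egr2 (13.3%, 5.05 to 26.8%, against 34.2%, 31.0 to 37.5%) and Dusp6 (4.44%, 0.543 to 15.1%, against 21.1%, 18.4 to 24.03%) were above it in Plzf +/+, with separate intervals. For Lhx1 (6.67% against 16.3%), Etv4 (4.44% against 8.99%) and Bcl6b (4.44% against 7.43%) the intervals overlapped.

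Cells with a Gfra1 UMI held more of the genes than cells without one. Gfra1-positive cells, as they are called here, numbered 205, 200 and 161 in Plzf +/+ and 119 and 15 in Plzf lu/lu. They held 3.22 of the 8 genes on average in Plzf +/+ against 1.36 in Gfra1-negative cells, and 3.50 against 1.42 in Plzf lu/lu. They were also deeper, with medians of 6559.5 against 4596 UMIs in Plzf +/+ and 9417.5 against 4545 in Plzf lu/lu. After thinning every cell to 2000 UMIs, with Gfra1 status read from the thinned counts, the means were 1.60 against 1.04 in Plzf +/+ and 1.32 against 0.90 in Plzf lu/lu.

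**Figure D1:**
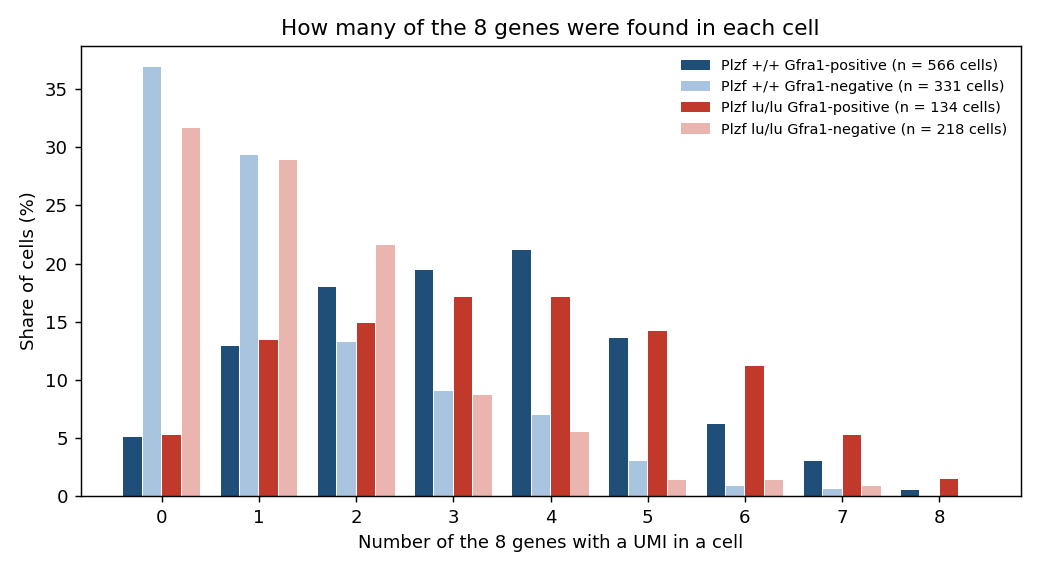
Number of the 8 genes with at least 1 UMI in a cell (x axis) against the share of cells (y axis, percent), for Gfra1-positive and Gfra1-negative cells of each genotype. Of the Plzf +/+ Gfra1-positive cells 64.0% held 3 or more of the genes, against 20.5% of the Gfra1-negative cells; all UMIs of each cell were used, and the positive cells were deeper.

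Levels were then compared between Gfra1-positive and Gfra1-negative cells of the same library, on UMIs summed over the cells of each class. This asks whether the response genes follow the GDNF receptor. In summed cells, fewer cells of a type and less RNA per cell cannot be told apart. By edgeR with the library as block, 5 of the 8 genes were higher in Gfra1-positive cells (Egr2, Lhx1, Bcl6b, Etv5 and Dusp6) and none lower, where 0.198% of the 10604 genes tested passed, 0.151% higher and 0.0472% lower. The median log2 fold change of the 8 genes was 1.29, beside 0.02 over all genes tested. In cells without a Gfra1 UMI, Sertoli markers summed to 406 to 632 CPM in Plzf +/+ and to 1572 and 933 in Plzf lu/lu (509 and 537 in cells with one), with a median log2 difference of -1.49 over 7 tested. Of these 7, edgeR called none, DESeq2 called 2, and 4 had an unadjusted p under 0.05. The medians of the spermatid and spermatocyte lists were -0.85 and -0.24. That of the differentiating spermatogonia list was -0.69 over 7 tested, with 1 above 0, 4 at an unadjusted edgeR p under 0.05 and 1 called. Its sums in Gfra1-positive cells were 409, 536 and 432 CPM in Plzf +/+, against 764, 703 and 588 in Gfra1-negative cells. In Plzf lu/lu they were 520 and 360 against 696 and 571. Without the cells rich in markers of other cell types, 7 of the 8 genes were called.

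Of the ETS factors, Etv5 stood at 123, 118 and 126 CPM in Gfra1-positive and at 47.0, 62.9 and 63.4 in Gfra1-negative Plzf +/+ cells (plates 1, 2 and 4). In Plzf lu/lu it was at 129 and 88.2 against 43.1 and 8.27 (plates 3 and 4). The last value rests on 1 UMI, where 3 UMIs would be 24.8. The 2 classes did not overlap, and the fitted difference was 1.297 ± 0.19 (log2, SE, adjusted p = 0.0235). Etv4 was at 59.4, 38.5 and 45.3 against 25.9, 37.3 and 17.4 in Plzf +/+, and at 88.9 and 64.2 against 40.0 and 8.27 in Plzf lu/lu, the last again from 1 UMI. It was higher in positive cells in all 5 libraries, as were 6.76% of all genes tested (5.05% were lower in all 5), though hardly on plate 2, and its difference of 1.03 ± 0.26 did not pass (adjusted p = 0.179).

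Bcl6b was at 47.2, 70.8 and 34.2 CPM in positive against 21.1, 31.4 and 12.7 in negative Plzf +/+ cells, and at 78.8 and 88.2 against 26.7 and 24.8 in Plzf lu/lu. Each library showed the difference (log2 1.38 ± 0.20, adjusted p = 0.0235). On plate 4 of Plzf lu/lu it rests on 11 against 3 UMIs, with 7 of the 11 in 1 cell. Lhx1 was at 129, 113 and 119 against 29.2, 21.6 and 36.5 in Plzf +/+. In Plzf lu/lu it was at 31.2 against 10.2 on plate 3, and on plate 4 a single UMI in each class gave 8.02 and 8.27. The difference, clear in 4 libraries and not measurable in the last, was 1.92 ± 0.21 (adjusted p = 0.00352).

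Of Egr2 and Egr4, 2 genes of one family, Egr2 passed and Egr4 did not. Egr2 was at 279, 253 and 268 CPM in positive against 85.9, 98.2 and 85.6 in negative Plzf +/+ cells, and at 156 and 48.1 against 42.4 and 24.8 in Plzf lu/lu (log2 1.62 ± 0.13, adjusted p = 0.000443). It was called in each of the 17 fits made. Egr4 was lower in positive cells of Plzf +/+, at 72.2, 44.2 and 48.5 against 105, 94.3 and 68.2, and higher in those of Plzf lu/lu, at 246 and 329 against 176 and 90.9. Over all libraries its difference was -0.07 ± 0.36 (adjusted p = 1.0). The sign of that value turned in 4 of the alternative fits.

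Of the inhibitors, Dusp6 was at 125, 135 and 127 CPM in positive against 55.1, 60.9 and 84.1 in negative Plzf +/+ cells, and at 76.4 and 96.2 against 31.4 and 33.1 in Plzf lu/lu (log2 1.07 ± 0.16, adjusted p = 0.0238). Spry4 was at 23.6, 29.4 and 41.3 against 21.1, 5.89 and 12.7 in Plzf +/+ and at 30.4 against 14.1 on plate 3 of Plzf lu/lu. On plate 4 of Plzf lu/lu it was at 40.1 in positive cells, and no UMI was found in negative cells, where 3 UMIs would be 24.8. Its difference of 1.29 ± 0.37, from 3 to 52 UMIs per class elsewhere, did not pass (adjusted p = 0.233).

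**Figure D2:**
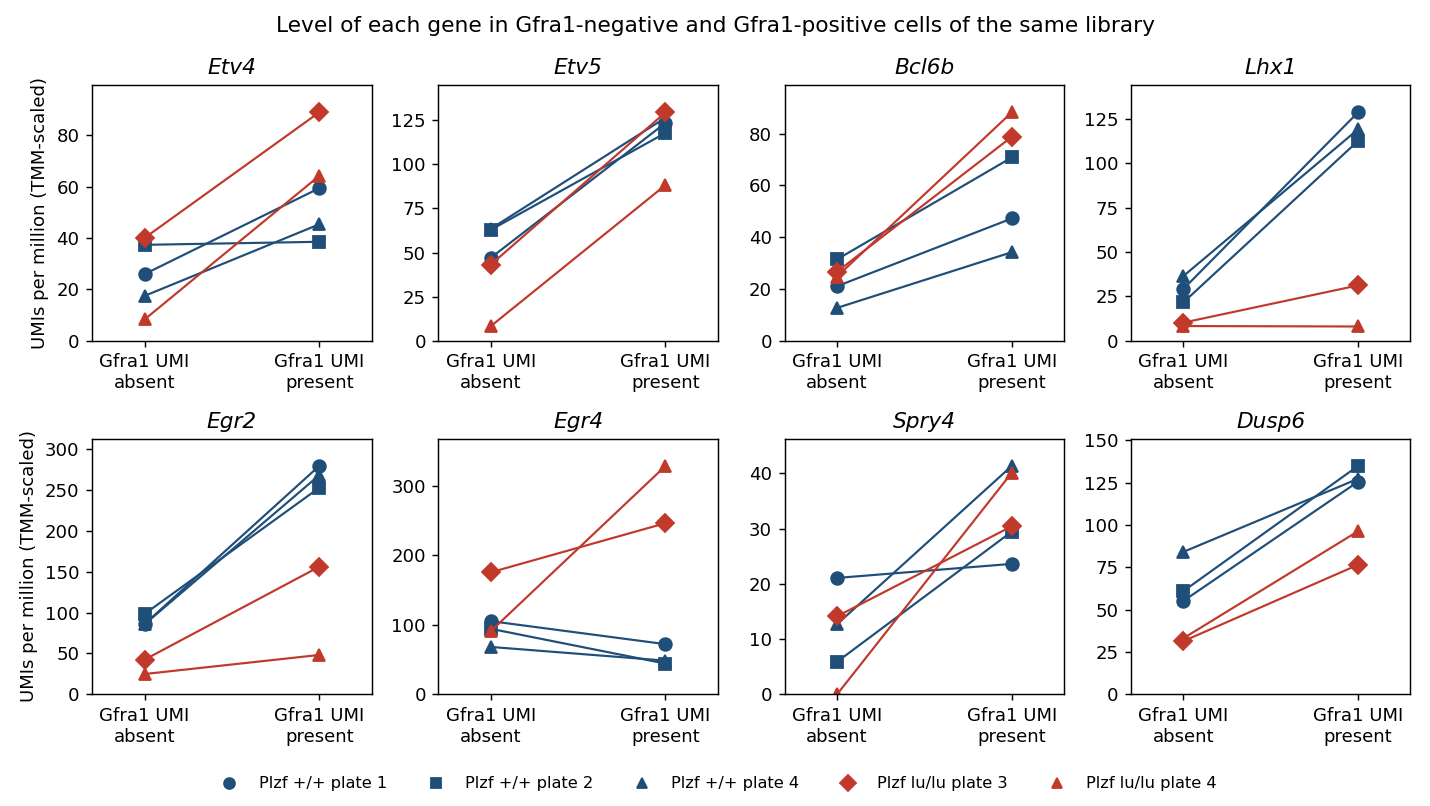
Level of each gene (y axis, CPM after TMM scaling, from 0) in the summed Gfra1-negative and Gfra1-positive cells (x axis) of each library, with a line joining the 2 classes of a library (blue, Plzf +/+; red, Plzf lu/lu). Egr2 and Dusp6 rise from left to right in all 5 libraries, while the blue lines of Egr4 slope down and the red ones up.

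Leaving out 1 library changed most of these calls. Without plate 1, Egr2 alone passed (adjusted p = 0.0266), with Lhx1 at 0.117, Etv5 at 0.387, Bcl6b at 0.286 and Dusp6 at 0.394. Without plate 3, Egr2 (0.0181) and Lhx1 (0.0323) passed, and Etv5, Bcl6b and Dusp6 were at 0.331, 0.331 and 0.290. Without the Plzf +/+ library of plate 4, Etv5 (0.108) and Bcl6b (0.109) did not pass. With each cell thinned to 2000 UMIs and its status read from the thinned counts, the log2 differences were smaller, 1.00 for Egr2, 0.93 for Lhx1, 0.70 for Bcl6b, 0.45 for Etv5 and 0.25 for Dusp6, and Egr2 and Lhx1 passed. With status from all UMIs and levels from the thinned counts they were 1.56 for Egr2, 1.63 for Lhx1, 1.34 for Etv5 and 0.93 for Dusp6, and these 4 passed.

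Shares of cells were compared at 1 depth. At 2000 UMIs in Plzf +/+, Egr2 was found in 25.8% of the 530 cells without a Gfra1 UMI (95% interval 22.2 to 29.8%), in 48.6% of the 212 cells with 1 (41.7 to 55.5%), in 47.8% of the 67 cells with 2 and in 52.0% of the 25 cells with 3 or more. Lhx1 went from 12.8% (10.1 to 15.98%) to 23.1% (17.6 to 29.4%) between 0 and 1 Gfra1 UMI and was at 16.4% and 32.0% in the last classes. The intervals of the classes with 0 and 1 did not overlap for either gene, in cells pooled over libraries. Within libraries they overlapped for Lhx1 on plates 2 and 4 and for Egr2 on plate 4, and the Lhx1 class with 2 overlapped that with 0. Etv5 was at 17.2%, 22.2%, 37.3% and 28.0% in the 4 classes of Plzf +/+. Egr4 was at 10.6%, 10.8% and 4.48% in the first 3 classes and in 4 of the 25 cells of the last, with overlapping intervals. In Plzf lu/lu at this depth, Egr4 was found in 32.1% of Gfra1-positive (19.9 to 46.3%) and 31.4% of Gfra1-negative cells (26.0 to 37.2%).

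**Figure D3:**
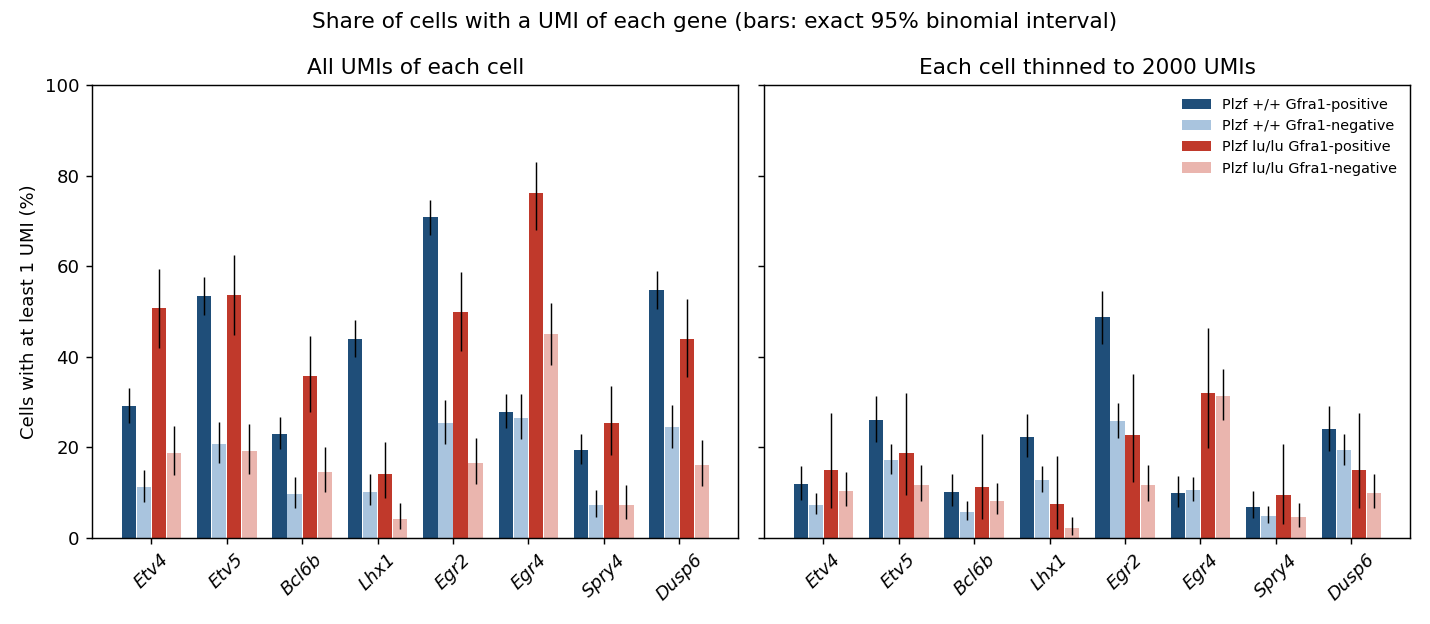
Share of cells with at least 1 UMI (y axis, percent) for each gene (x axis) by genotype and Gfra1 status, from all UMIs (left) and after thinning each cell to 2000 UMIs with status read from the thinned counts (right). Bars carry exact 95% binomial intervals; Egr4 in Plzf lu/lu Gfra1-positive cells reaches 76.1% on the left and 32.1% on the right.

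Between genotypes, the called genes went in both directions. In all cells of a library, Egr4 rose and Lhx1 fell in Plzf lu/lu, and the other 6 did not pass (2 of 8, where 0.816% of the 13728 genes tested were called, 0.583% higher and 0.233% lower). The median log2 fold change of the 8 genes was -0.30, beside 0.00 over all genes. In 5 of the 8 the libraries of the 2 genotypes did not overlap, which was so for 34.4% of all genes tested.

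The clearest rise was in Egr4. It was at 80.5, 51.8 and 53.3 CPM in Plzf +/+ and at 215 and 209 in Plzf lu/lu, so both mutant libraries stood far above all 3 controls and close to each other. The means were 61.9 ± 16.2 (SD, n = 3) and 212 ± 4.26 (SD, n = 2), and the fitted difference was 1.78 ± 0.22 (log2, adjusted p = 0.0185), or 3.44-fold. Egr4 was found in 27.4% of Plzf +/+ and 56.8% of Plzf lu/lu cells, and at 2000 UMIs in 10.3% (8.33 to 12.6%) and 31.5% (26.6 to 36.8%). In Plzf lu/lu 39 cells held 5 or more Egr4 UMIs, in Plzf +/+ 7.

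Lhx1 fell. It was at 97.8, 86.3 and 88.7 CPM in Plzf +/+ and at 21.1 and 8.04 in Plzf lu/lu, the last from 2 UMIs. The difference was -2.30 ± 0.28 (adjusted p = 0.0186), a 4.93-fold lower level. At 2000 UMIs 16.3% of Plzf +/+ and 3.00% of Plzf lu/lu cells held Lhx1.

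Egr2 was at 219, 204 and 200.5 CPM in Plzf +/+ and at 101 and 36.2 in Plzf lu/lu, without overlap (log2 -1.37 ± 0.32, adjusted p = 0.129). The mutant libraries lay far from each other: the log2 fold change was -2.53 without plate 3 and -1.04 without the mutant library of plate 4. There was 1 cell of plate 3 with 26 UMIs of it. Very deep cells, with more than 4 times the median depth of their genotype, held 12.5% of the Egr2 UMIs in Plzf lu/lu. Dusp6 was at 103, 110 and 109 against 55.0 and 64.4, also without overlap (-0.89 ± 0.17, adjusted p = 0.0632). Egr2 and Dusp6 did not pass here but passed in 6 and 5 of the other fits, among them those without plate 1 (0.00846 and 0.00404) and without very deep cells (0.0152 and 0.00548).

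The ETS factors, Bcl6b and Spry4 did not pass. Etv5 was at 99.2, 98.6 and 102 in Plzf +/+ and at 88.1 and 48.3 in Plzf lu/lu (-0.41 ± 0.22, adjusted p = 0.471). Etv4 was at 48.7, 35.7 and 34.9 against 65.7 and 36.2 (0.49 ± 0.28, adjusted p = 0.510), and Bcl6b at 38.8, 57.9 and 26.1 against 53.8 and 56.3 (0.41 ± 0.34, adjusted p = 0.688). Spry4, at 22.5, 22.6 and 30.8 against 22.7 and 20.1, differed by -0.19 ± 0.30 (adjusted p = 0.881). For the last 3 the genotypes overlapped.

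**Figure D4:**
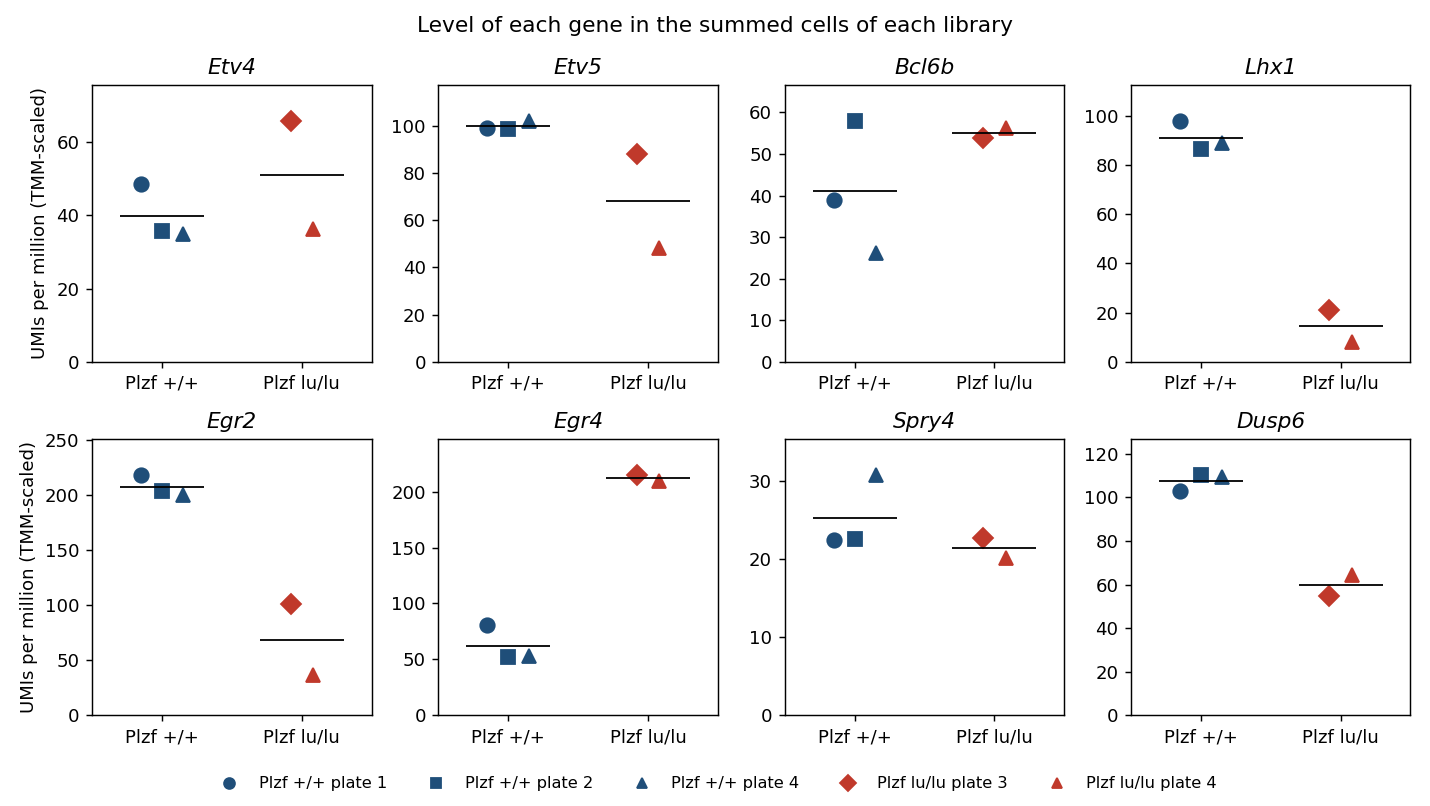
Level of each gene (y axis, CPM after TMM scaling, from 0) in the summed cells of each library (points) by genotype (x axis), with the mean of each genotype as a line. Both Plzf lu/lu libraries lie above the 3 Plzf +/+ libraries for Egr4 (215 and 209 against 51.8 to 80.5) and below them for Lhx1, Egr2, Dusp6 and Etv5.

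These calls rest on few libraries. The adjusted p of Egr4 was 0.104 without plate 2, 0.128 without the Plzf +/+ library of plate 4, 0.344 without plate 3 and 0.105 without the mutant library of plate 4, and that of Lhx1 was 0.104, 0.105, 0.344 and 0.0591, while the log2 fold changes stayed between 1.63 and 1.79 for Egr4 and between -3.50 and -2.11 for Lhx1. On plate 4 alone, where both genotypes shared a plate, the log2 ratio was 1.97 for Egr4 and -3.46 for Lhx1, with no test. Without the cells rich in markers of other cell types, Sertoli cells included, Egr4, Lhx1, Egr2, Dusp6 and Etv4 passed, with log2 fold changes of 1.75, -2.42, -1.35, -1.02 and 0.64.

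Fewer Plzf lu/lu cells held Gfra1 (37.9% and 39.5% against 58.1 to 66.0%), so the genotypes were also compared within Gfra1-positive cells. In these cells spermatid markers summed to 1429, 6481 and 5852 CPM in Plzf +/+ and to 2074 and 384 in Plzf lu/lu, with a median log2 difference of -1.85 over 14 tested, 0 of them above 0. Neither edgeR nor DESeq2 called any of the 14, and 5 had an unadjusted p under 0.05. Egr4 rose again (1 of 8 genes, where 0.0885% of the 12430 genes tested were called, 0.0724% higher and 0.0161% lower). The median of the 8 genes was -0.02, beside -0.13 over all genes. Egr4 was at 72.8, 44.2 and 48.2 CPM in Plzf +/+ and at 247 and 321 in Plzf lu/lu (2.33 ± 0.26, adjusted p = 0.0334), 5.02-fold higher. Lhx1 was at 130, 113 and 119 against 31.2 and 7.82, without overlap (-2.17 ± 0.33, adjusted p = 0.0574). On plate 4 the mutant value rests on 1 UMI, and without plate 3 the log2 fold change was -3.92. Lhx1 missed the threshold here and passed in 6 of the 14 other fits, DESeq2's among them (0.00412).

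Egr2 was at 282, 253 and 266 against 156 and 46.9 (-1.15 ± 0.36, adjusted p = 0.277) and Dusp6 at 127, 135 and 126 against 76.5 and 93.8 (-0.66 ± 0.20, adjusted p = 0.248). Etv4, at 59.9, 38.5 and 45.04 against 89.0 and 62.6 (0.75 ± 0.29, adjusted p = 0.328), and Bcl6b, at 47.6, 70.8 and 34.0 against 78.9 and 86.0 (0.67 ± 0.34, adjusted p = 0.443), had their mutant libraries on the other side. On plate 4 of Plzf lu/lu the Bcl6b value rests on 11 UMIs, 7 of them in 1 cell, and its place above Plzf +/+ depends on that cell. With Egr4 and Lhx1, 6 of the 8 genes had no overlap between genotypes, which was so for 35.3% of all genes tested. Etv5 (-0.09 ± 0.21, adjusted p = 0.927) and Spry4 (0.06 ± 0.37, adjusted p = 0.995) overlapped. The call of Egr4 was lost on leaving out plate 2 (0.0964), the Plzf +/+ library of plate 4 (0.275), plate 3 (0.344) or the mutant library of plate 4 (0.164), with log2 fold changes from 2.25 to 2.54. Without the cells rich in markers of other cell types, spermatids included, it was 2.15 (adjusted p = 1.69e-09).

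**Figure D5:**
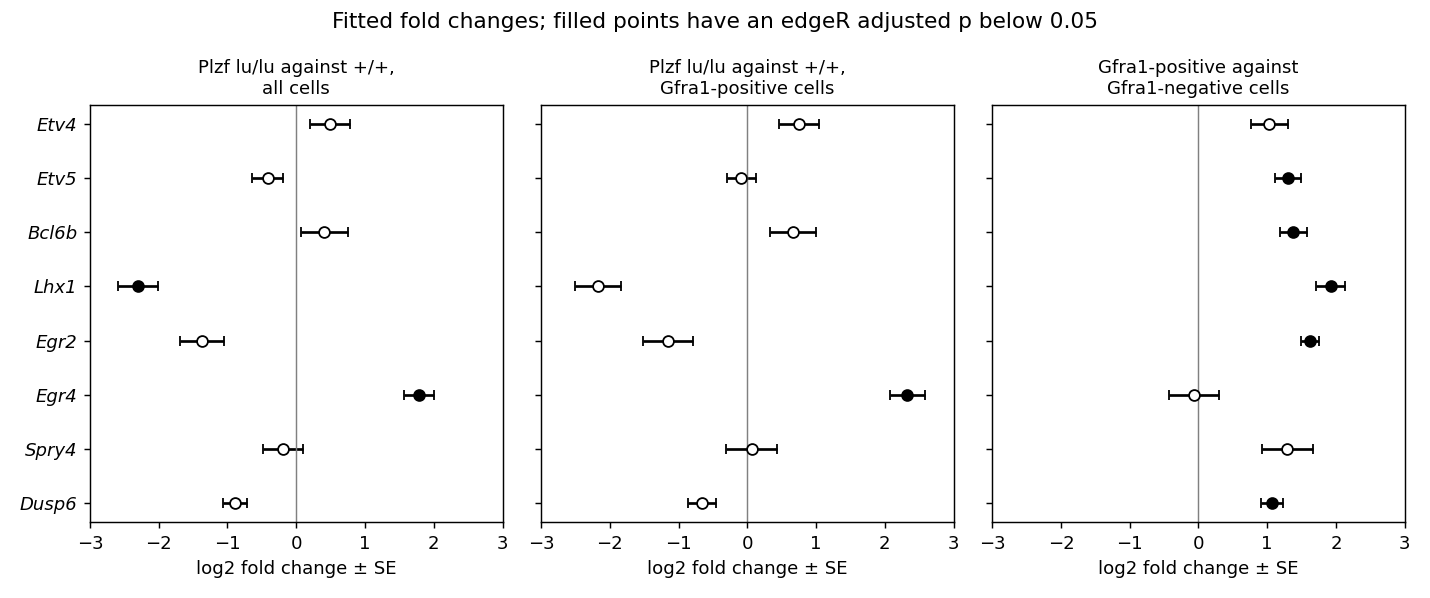
Fitted log2 fold change with its SE (x axis) of each gene (y axis) for Plzf lu/lu against Plzf +/+ in all cells and in Gfra1-positive cells, and for Gfra1-positive against Gfra1-negative cells; filled points passed at an edgeR adjusted p below 0.05. Egr4 stands at 1.78 and 2.33 in the genotype panels and at -0.07 in the Gfra1 panel, and Lhx1 at -2.30, -2.17 and 1.92.

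Whether the Gfra1 contrast itself differed between genotypes was tested as an interaction. None of the 8 genes passed by edgeR, where 0.00815% of the 12264 genes tested were called. DESeq2 called 0 as well, and 1 of the 8 (Egr4) had an unadjusted edgeR p under 0.05. The interaction of Egr4 was 1.60 ± 0.36 (log2, adjusted p = 0.216), and those of the other 7 lay between -0.54 and 0.68, with SEs of 0.31 to 0.79.

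Gfra1-positive cells were also divided by T and Eomes, 2 T-box factors of the most primitive spermatogonia. In Plzf +/+ 62, 61 and 39 Gfra1-positive cells held a UMI of T or Eomes, and in Plzf lu/lu 6 and 0. In the Plzf +/+ cells that did, Lhx1 was at 231, 160 and 178 CPM (plates 1, 2 and 4, not scaled by TMM), against 82.6, 87.7 and 90.8 in those that did not. Egr2 was at 355, 384 and 278 against 244, 187 and 248. Egr4 lay the other way, at 39.2, 38.4 and 31.5 against 86.5, 43.1 and 51.6. Etv4, Spry4 and Dusp6 were higher in the cells with T or Eomes in each of the 3 libraries, as were Lhx1 and Egr2, and Egr4 was lower in each. Etv5 (172 and 150 against 101 and 97.9) and Bcl6b (93.7 and 107 against 26.2 and 52.6) were higher on plates 1 and 2 but not on plate 4 (117 against 122 and 31.5 against 33.0). The median depths were close (6350.5 to 7291 against 6135 to 6712 UMIs). These are descriptions of classes drawn from the same cells, with no test. Leaving out every cell with a UMI of T or Eomes left the genotype calls in all cells standing, with log2 fold changes of 1.63 for Egr4 (adjusted p = 0.0249) and -1.86 for Lhx1 (0.0350). In the Gfra1 contrast it left 2 of the 5 calls, Egr2 (1.66, adjusted p = 0.00175) and Lhx1 (2.03, 0.0243), while Etv5 (1.29, 0.128), Bcl6b (1.19, 0.313) and Dusp6 (1.01, 0.162) no longer passed.

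Correlations between the genes over single cells were then described. Over the 28 pairs of the 8 genes in 557 Plzf +/+ Gfra1-positive cells of at least 2000 UMIs, the mean of the within-library Pearson correlations of ln(UMIs per 10000 + 1) ran from -0.08 to 0.28. Lhx1 with Egr2 was highest (0.28, from 0.25 to 0.30 in the 3 libraries), followed by Egr2 with Dusp6 (0.25) and Egr2 with Etv5 (0.22). In 117 Gfra1-positive cells of the Plzf lu/lu library of plate 3 they ran from -0.20 (Lhx1 with Egr4) to 0.45 (Etv5 with Egr2), with Lhx1 and Egr2 at 0.35. Of the 249 Gfra1-positive Plzf +/+ cells with Lhx1, 84.7% held Egr2, against 59.9% of those without Lhx1. Of the same cells 24.1% held Egr4, against 30.9% without Lhx1. Points share library and depth, and counts are sparse, so these values are descriptions.

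The genes whose level most resembled the sum of the 8 over the same cells were Mcam (mean r = 0.41), which encodes an adhesion molecule, Chd4 (0.39), the remodelling ATPase of the NuRD complex, Abr (0.37), Usp34 (0.36), a ubiquitin protease, and Gfra1 itself (0.34). The median over the 8953 candidates was 0.01 and the 99th percentile 0.20. Gfra1 reached r of 0.31 to 0.37 in the 3 libraries, although all these cells held it.

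No receptor and no gene of the cascade was called between genotypes. Of the receptors for GDNF and FGF, 5 of 9 had enough UMIs to be tested in all cells, and none passed by edgeR or DESeq2 (1 with an unadjusted p under 0.05). Gfra1 was at 238, 226 and 212 CPM against 133 and 137 (-0.75 ± 0.15, adjusted p = 0.0641), and Ret, the kinase that signals for it, at 88.0, 92.8 and 99.5 against 93.6 and 72.4 (-0.11 ± 0.18, adjusted p = 0.991). Of the RAS-ERK cascade 0 of 17 passed by edgeR and by DESeq2, and 2 had an unadjusted p under 0.05, among them Mapk3 (ERK1, 0.66 ± 0.18, adjusted p = 0.160). The medians were -0.16 for the receptors and -0.11 for the cascade.

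Of 19 other targets of ERK tested, 1 rose, 1 fell and 17 did not pass, where 0.583% of all genes tested were higher and 0.233% lower. Ccnd1, which encodes cyclin D1, was at 106, 83.8 and 91.3 CPM in Plzf +/+ and at 40.6 and 32.2 in Plzf lu/lu (-1.29 ± 0.21, adjusted p = 0.0423). Mycn, a MYC family factor, was at 22.0, 19.7 and 16.9 against 65.7 and 44.2 (1.57 ± 0.26, adjusted p = 0.0430). Of 6 other genes that GDNF regulates in cultured spermatogonia, T fell, from 82, 90 and 40 UMIs in Plzf +/+ to 4 and 0 in Plzf lu/lu (-4.43 ± 0.60, adjusted p = 0.0220). Without plate 3, where the mutant library left held no UMI of T, its fitted value was -8.77, so the size of its fall is not fixed by these data. Each of these 3 calls was lost on leaving out plate 2, either library of plate 4, or plate 3, with adjusted p of 0.0691 to 0.421.

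In Gfra1-positive against Gfra1-negative cells, Ret was 1.08 ± 0.19 higher on the log2 scale (adjusted p = 0.0644), the ERK targets had a median of 0.54 over 15 tested, 13 of them above 0, and Ccnd2, which encodes cyclin D2, was nearest to the threshold (0.94 ± 0.18, adjusted p = 0.0950). None of these passed by edgeR. Of the 15 ERK targets 11 had an unadjusted p under 0.05, as did 971 of all 10604 genes tested, and DESeq2 called 1 of them and 1 of the 3 receptors tested. Stra8, a gene of cells entering differentiation, fell by 1.57 in Gfra1-positive cells (adjusted p = 0.000443). The RAS-ERK cascade had a median of 0.03 over 17 tested.

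Egr2 and Egr4 belong to the immediate early genes, which cell dissociation also induces. A list of 23 other immediate early and dissociation genes held Fos, Jun, Egr1 and heat shock genes among them. It summed to 3536 to 3593 CPM in Plzf +/+ and to 4130 and 4035 in Plzf lu/lu. Most of these UMIs came from heat shock genes, with 11754 of Hspa8, 11854 of Hsp90aa1 and 4534 of Dnaja1 over all cells. Egr1 gave 1444 and Fos 268, so the sums describe heat shock genes more than immediate early genes. In Gfra1-positive cells the sums were 3545 to 3613 and 4452 and 4405. There Hspa8 gave 1730 of 5299, 1724 of 6733 and 1379 of 4674 UMIs of the list in Plzf +/+. In Plzf lu/lu it gave 2393 of 5711 and 241 of 550. In all cells, none of its 20 tested genes passed between genotypes by edgeR or DESeq2, 4 had an unadjusted p under 0.05, 12 were above 0, and the median was 0.07. Atf3 alone of the list was at 0 in a library. Hspa8, a constitutive heat shock protein gene, was at 1167, 947 and 1077 against 1772 and 1633 (0.68 ± 0.13, adjusted p = 0.0597). Socs3, an inhibitor of cytokine signalling, was at 21.5, 19.3 and 21.0 against 7.97 and 12.1 (-1.23 ± 0.36, adjusted p = 0.175). In Gfra1-positive cells Egr1, of the family of Egr2 and Egr4, was at 176, 156 and 133 against 269 and 188 (0.61 ± 0.21, adjusted p = 0.292). There edgeR called none of 18 tested and DESeq2 1, 3 had an unadjusted p under 0.05, and the median was -0.14, beside -0.13 over all genes. In Gfra1-positive against Gfra1-negative cells the median of the list was 0.20 over 17 tested, 12 of them above 0, and 5 had an unadjusted p under 0.05. None passed by edgeR or DESeq2, with Zfp36, an mRNA decay factor, at 0.82 ± 0.19 (adjusted p = 0.151) and Egr1 at 0.62 ± 0.16 (adjusted p = 0.195). The part of dissociation in the levels of Egr2 and Egr4 was not tested.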

How the data were processed

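The authors sorted tdTOMATO+ testis cells into 384-well plates, sequenced RNA from its 3′ end and deposited 1 table per genotype of raw UMI counts per gene symbol and cell, not normalized. The submitters' processing notes name bcl2fastq 2.18.0.12, Picard 2.9.3, STAR 2.5.4a and GRCm38. The study tested cells as replicates; here libraries were the replicates, and plate and table gave each cell its library (5 Plzf +/+ cells of plate 4 lie outside the labelled wells). The libraries reuse well barcodes (358 of 376 in at least 2 of them) and share no cell name. No cell was filtered and doublets were not called.

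A cell with at least 1 Gfra1 UMI was Gfra1-positive. UMIs were summed per library, or per library and Gfra1 class, filtered with filterByExpr, scaled by TMM and fitted with edgeR 4.0.16 (glmQLFit, glmQLFTest, robust) in R 4.3.3, with the library as block for Gfra1 status. The biological coefficient of variation was 0.236 between genotypes. Genes were called at a Benjamini-Hochberg adjusted p under 0.05 over all genes tested. SEs come from the fold change and its F statistic. Fits were tested on simulated data. Alternatives were DESeq2 1.42.0, RLE scaling, no filter, leaving out each library, thinning to 2000 UMIs (1000 for shares only; 63 Plzf +/+ and 19 Plzf lu/lu cells were shallower than 2000), leaving out cells with 1% or more of their UMIs in markers of other cell types, very deep cells or wells outside the labels, at least 2 Gfra1 UMIs, Plzf +/+ alone and no block. Leaving out cells with T or Eomes, and thinning with status from all UMIs, were added after seeing the data.

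The 8 genes and all lists were chosen with earlier results of these data known. Named besides the 8 are, per list, the genes that passed (at most 6) or else the 2 of lowest p, and the 5 genes most like the sum of the 8; 1 gene that this rule names is not reported here. Lists of markers of Leydig, peritubular myoid, erythroid and immune cells summed to 247 CPM or less in every class, and the endothelial list to 29.6 or less. Markers of undifferentiated spermatogonia had 1 gene higher (Sox3) and 1 lower (Zbtb16) of 15 between genotypes, and those of differentiating spermatogonia, spermatocytes, spermatids and germ cells had none.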

Additional observations from a re-analysis of the deposited data

Results flagged for a closer look

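The Gfra1 contrast of Egr4 ran in opposite directions in the genotypes: its level was lower in Gfra1-positive cells in all 3 Plzf +/+ libraries and higher in both Plzf lu/lu libraries. The interaction was 1.60 on the log2 scale (unadjusted p = 0.000651, adjusted p = 0.216 by edgeR), so the difference did not pass over all genes. Without the cells rich in markers of other cell types it was 1.06 and passed (adjusted p = 0.0301), and without the filter on low counts 1.62 (adjusted p = 0.000223). With cells thinned to 2000 UMIs and status read from the thinned counts it was -0.10 (adjusted p = 0.995), and with status read from all UMIs 1.07 (adjusted p = 0.922). The median depth of Gfra1-positive and Gfra1-negative cells was 6559.5 and 4596 UMIs in Plzf +/+ and 9417.5 and 4545 in Plzf lu/lu, and the part of depth in the pattern was not tested beyond these fits.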

How the results depend on the processing

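The counts of the 8 genes and of all genes called moved with the setting. The 2, 1 and 5 of the 8 genes called in the 3 comparisons of levels kept their direction in every alternative fit that gave a value. Between genotypes in all cells, 4 of the 8 genes and 583 genes in all were called with no filter on low counts, 5 and 1522 without cells rich in other markers, 4 and 406 after thinning to 2000 UMIs, and 4 and 671 without very deep cells, against 2 and 112. In Gfra1-positive cells, where 1 and 11 were called, the counts were 2 and 70 by DESeq2, 3 and 551 with no filter, 5 and 885 without cells rich in other markers, 2 and 42 after thinning, 3 and 148 with thinning and status from all UMIs, 4 and 398 without very deep cells, 21 genes with RLE scaling and 52 with at least 2 Gfra1 UMIs. Between Gfra1 classes, where 5 and 21 were called, 2 of the 8 were called after thinning and 2 without cells with T or Eomes, and 3 in Plzf +/+ alone. The genes in all were 55 by DESeq2, 267 with no filter, 707 without cells rich in other markers, 225 after thinning, 183 with status from all UMIs, 456 without very deep cells, 138 with at least 2 Gfra1 UMIs and 6 without cells with T or Eomes. For the interaction, 1 of the 8 was called with no filter and 1 without cells rich in other markers, and the genes in all were 194 and 8 there, 0 by DESeq2 and without cells with T or Eomes, 4 after either thinning, 3 without very deep cells and 11 with at least 2 Gfra1 UMIs, against 1. Leaving out 1 library gave 0 to 4 of the 8 genes and 1 to 1387 genes between genotypes, 0 to 4 and 1 to 1965 in Gfra1-positive cells, 1 to 6 and 4 to 139 between Gfra1 classes, and 0 to 22 genes for the interaction. Where 1 mutant library was left, its spread was taken from the other libraries. The highest counts came without plate 1, except 6 and 139 (without plate 2) and 22 (without plate 3). The cause was not tested.

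Log2 values that changed sign, none of them called as reported, were, between genotypes, Etv4 (-0.15 without plate 3, but 0.64 and called without cells rich in other markers) and Spry4 (0.10 without cells with T or Eomes). In Gfra1-positive cells they were Etv5 (0.10 without plate 1, 0.20 without the mutant library of plate 4 and 0.12 without cells with T or Eomes), Bcl6b (-0.16 thinned) and Spry4 (-0.021 without plate 1, -0.073 without cells rich in other markers, -0.0017 without very deep cells and -0.30 thinned with status from all UMIs). Between Gfra1 classes Egr4 was at 0.03, 0.16 and 0.02 without each Plzf +/+ library and at 0.031 without cells with T or Eomes. Interactions were, without cells rich in other markers, -0.0046 (Etv4), -0.038 (Bcl6b) and -0.25 (Spry4). Thinned, they were -0.67 (Bcl6b), 0.73 (Lhx1), -0.34 (Egr2) and -0.10 (Egr4, which was called at 1.06 without cells rich in other markers and at 1.62 with no filter). That of Egr2 was also -0.58 without plate 3, -0.013 without very deep cells, -0.047 without cells with T or Eomes and -0.12 thinned with status from all UMIs, and that of Spry4 -0.45 without plate 1 and -0.10 without the mutant library of plate 4. Over the fits that leave out 1 library, these values ran from -0.15 to 0.76 (Etv4, all cells), from -0.50 to 0.20 (Etv5) and from -0.021 to 0.34 (Spry4) in Gfra1-positive cells, from -0.32 to 0.16 for Egr4 between Gfra1 classes, and from -0.58 to 0.34 (Egr2) and -0.45 to 6.76 (Spry4, the highest where the mutant library left has no Spry4 UMI in Gfra1-negative cells) for the interaction. The mean number of the 8 genes per cell was 1.24 at 2000 UMIs, 0.699 at 1000 and 1.14 for genes with 2 or more UMIs in Plzf +/+, and 0.970, 0.506 and 1.03 in Plzf lu/lu. No paired analysis was possible because only plate 4 holds both genotypes, and a plate term leaves no residual degrees of freedom; plate 4 alone has no test. Without the library as block, Bcl6b was at an adjusted p of 0.0657 between Gfra1 classes. Thinned Gfra1 fits gave no value for Spry4 where it failed the filter on low counts, nor for Etv4 and Bcl6b with status from all UMIs. The mutant library of plate 4 holds the fewest cells (38) and UMIs (254514), which limits what its values can show.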
